A study of Mus musculus with 12 samples.

Results

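The expression of 10 plasma membrane amino acid transporter genes was followed as mouse splenic B cells responded to lipopolysaccharide (LPS). The genes were chosen by symbol and were found by Entrez gene ID among the 27179 genes of the deposited count table. They are Slc3a2, Slc7a5, Slc7a6, Slc7a11, Slc7a1, Slc1a5, Slc38a1, Slc38a2, Slc38a5 and Slc43a1, and 9 of them were among the 12750 genes that passed the filters and were tested.

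RNA-Seq was performed on 12 libraries, 2 biological replicates for each of 6 stages, from male C57BL/6 mice 6 to 12 weeks old with no engineered allele given in the labels of these libraries. Naive B cells were sorted from the spleen after red cell lysis and received no treatment. The other 5 stages came from naive B cells cultured with 25 µg/ml of LPS from Salmonella typhosa, which activates B cells through Toll-like receptor 4. These were activated cells sorted before their first division at 3, 10 and 33 h, and, on day 4, an activated population that had undergone clonal expansion and lacked CD138 (expanded B cells) and CD138+ plasmablasts. The 2 day 4 stages were therefore separated by surface phenotype and not by time. Cells for culture were isolated by negative selection. The day 4 cultures were set up at a lower cell density than those for 3, 10 and 33 h. Density and stage cannot be told apart between 33 h and day 4. Every stage is an average over many cells, so fewer cells with an RNA and less of it per cell cannot be told apart.

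Amino acid transporters of the plasma membrane supply the building blocks for growth and for secreted protein. Slc3a2 encodes 4F2hc (CD98), a glycoprotein heavy chain that carries light chains of the Slc7 family to the cell surface through a disulphide bond. The light chains set the cargo: Slc7a5 (LAT1) takes up large neutral amino acids such as leucine, Slc7a6 (y+LAT2) exchanges cationic for neutral amino acids, and Slc7a11 (xCT) imports cystine in exchange for glutamate. Slc7a1 (CAT1) imports arginine and lysine and needs no heavy chain. Slc1a5 (ASCT2) exchanges neutral amino acids including glutamine, Slc38a1, Slc38a2 and Slc38a5 (SNAT1, SNAT2 and SNAT5) are sodium-coupled glutamine and small neutral amino acid transporters, and Slc43a1 (LAT3) carries branched-chain amino acids without a heavy chain.

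Total counts per library ran from 23026619 to 60585587. B cell marker genes summed to 9269 to 9575 CPM (counts scaled to library size) in naive cells, and plasma cell markers to 16396 to 16909 CPM in plasmablasts against 361.7 to 388.9 CPM in naive cells, as the labels of those stages give them. The naive libraries also held more summed marker RNA of other cell types. Summed erythroid markers reached 146.5 to 196.7 CPM there and at most 2.53 CPM in any other stage. Summed myeloid markers were at 122.2 to 275.7 CPM in naive cells and 0.341 to 37.5 CPM elsewhere, with S100a8 and Mpo at 0 in both libraries of every later stage. Not all 8 markers fell. From naive to expanded cells the test given below called 6 down and 1 up, beside 22.2% and 24.9% of all tested genes. The 1 was Itgam (log2 fold change 1.61, SE 0.33), and Adgre1 was not called (0.19, SE 0.30). T cell markers were at 62.9 to 67.2 CPM against 13.9 to 38.8 CPM, and NK cell markers at 6.19 to 8.12 CPM against at most 0.395 CPM. The T cell list was mixed. From naive to 3 h, Trac rose (log2 fold change 1.83, SE 0.35) and 5 of the 6 tested fell, beside 21.0% and 24.3% of all tested genes. From naive cells to plasmablasts, Trac (4.16, SE 0.30) and Cd3g (1.36, SE 0.40) rose and 3 fell, beside 26.6% and 23.4%. These values accompany each comparison with naive cells, and their part in those results was not tested.

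Levels are given as RPKM, read counts scaled by exon length and library size, which allows genes to be compared per length. The summed RPKM of the 10 genes was 204.3 ± 4.81 (SD, n = 2) in naive cells. The sum was 591.8 ± 58.1 after 3 h and 390.6 ± 13.5 after 10 h. The 33 h and expanded stages had 362.2 ± 37.3 and 381.9 ± 17.7, and plasmablasts 990.6 ± 44.1. Both libraries at 3 h and both plasmablast libraries therefore lay above every library of the stages before and after them, and the plasmablast libraries were the highest of all. The leading genes at these 2 high points differed.

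**Figure D1:**
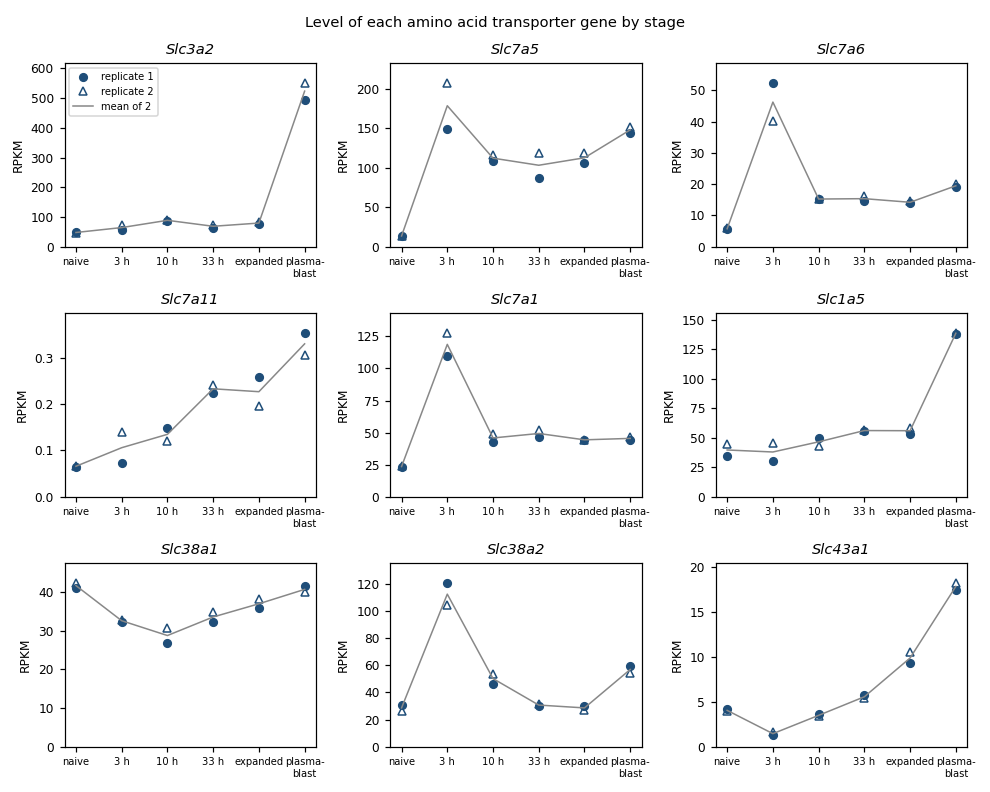
RPKM (linear axes from 0, with a scale of its own in each panel) of the 9 tested transporter genes in each library of the 6 stages. Filled circles are replicate 1, open triangles replicate 2 and the grey line joins the means of 2. Slc7a5, Slc7a6, Slc7a1 and Slc38a2 are highest at 3 h, whereas Slc3a2, Slc1a5 and Slc43a1 are highest in plasmablasts.

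The heavy chain gene Slc3a2 (mm10 chr19:8706882-8723369) stood out at the last of the 5 steps. Its RPKM was 48.8 and 46.5 in the 2 naive libraries, 54.7 and 73.8 (3 h), 87.7 and 89.5 (10 h), 63.4 and 73.7 (33 h) and 75.9 and 82.9 (expanded). In the 2 plasmablast libraries it was 495.3 and 551.9. The plasmablast values stood far above all others, and among the earlier stages 3 h and 33 h overlapped. Differential expression (DE) was tested throughout with edgeR's glmTreat against a fold change of 1.5, with Benjamini-Hochberg adjustment over all 12750 genes. Slc3a2 rose from expanded cells to plasmablasts by a log2 fold change of 2.72 (SE 0.13, adjusted p = 1.7e-08), and 1.99% of the tested genes had a higher change at that step. Its log2 fold changes at the 4 earlier steps were 0.43, 0.46, -0.37 and 0.21, with SE of 0.12 to 0.13. None was DE by glmTreat. The quasi-likelihood F-test, which has no fold threshold, called the changes from naive to 3 h (adjusted p = 0.0074), from 3 to 10 h (0.0057) and from 10 to 33 h (0.027).

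Slc7a5 (chr8:121881146-121907686), the LAT1 light chain, followed another course. Its RPKM was 13.4 and 13.5 in naive cells and 149.2 and 207.4 at 3 h. It then stood at 108.6 and 115.3 (10 h), 86.9 and 119.0 (33 h), 106.2 and 118.6 (expanded) and 144.1 and 151.4 (plasmablasts). The naive libraries were far below the rest, the 10 h, 33 h and expanded stages overlapped, and plasmablasts overlapped with 3 h. Slc7a5 rose by a log2 fold change of 3.73 from naive to 3 h (SE 0.17, adjusted p = 6.4e-09, glmTreat), a change exceeded by 1.69% of tested genes. From 3 to 10 h its log2 fold change was -0.67 (SE 0.16, adjusted p = 0.28), which was not DE by glmTreat. The F-test with no fold threshold called this fall (adjusted p = 0.0024). The 3 h replicates differed, and without replicate 1 at 3 h the log2 fold change became -0.89. From expanded cells to plasmablasts its log2 fold change was 0.39 (SE 0.16), not DE by glmTreat but called by the F-test (adjusted p = 0.046).

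The light chain Slc7a6 (chr8:106168219-106198714) had its high point at 3 h. Its RPKM rose from 5.52 and 5.90 in naive cells to 52.4 and 40.1 at 3 h, and then stood at 15.3 and 15.1 (10 h), 14.5 and 16.2 (33 h), 13.9 and 14.5 (expanded) and 19.0 and 19.9 (plasmablasts). The 33 h stage overlapped with 10 h and with expanded cells, and no other stages overlapped. The log2 fold change was 3.02 from naive to 3 h (SE 0.13, adjusted p = 1.5e-09) and -1.60 from 3 to 10 h (SE 0.12, adjusted p = 3.3e-06), both DE by glmTreat.

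Slc7a11 (chr3:50364936-50499087), the xCT light chain, was the lowest of the tested transporters, with 12 to 120 counts per library. Its RPKM was 0.0640 and 0.0672 in naive cells, 0.0725 and 0.139 (3 h), 0.149 and 0.120 (10 h), 0.224 and 0.241 (33 h), 0.258 and 0.195 (expanded) and 0.353 and 0.306 (plasmablasts). The plasmablast libraries were the highest and the naive libraries the lowest, with overlaps between 3 and 10 h and between 33 h and expanded cells. No single step was DE by glmTreat, with standard errors of 0.26 to 0.36 on the log2 scale. The F-test with no fold threshold called the step from 10 to 33 h (adjusted p = 0.029). The log2 fold change from naive cells to plasmablasts was 2.32 (SE 0.31, adjusted p = 7.6e-05, glmTreat).

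The balance of heavy to light chain RNA was computed per library as the RPKM of Slc3a2 over the summed RPKM of Slc7a5, Slc7a6, Slc7a11 and the light chains Slc7a7 and Slc7a8. It was 2.14 and 1.98 for naive B cells and stayed below 1 in all 8 libraries from 3 h to the expanded stage, at 0.268 and 0.293 (3 h), 0.679 and 0.667 (10 h), 0.595 and 0.526 (33 h) and 0.593 and 0.586 (expanded). In plasmablasts it was 2.48 and 2.63. The naive and plasmablast libraries thus held more heavy chain than light chain RNA per length and the activated libraries less. The ratio at 3 h was 0.136 times that in naive cells, and the ratio in plasmablasts was 4.34 times that in expanded cells. The libraries of the 2 stages did not overlap in either comparison, but the exact permutation test of 2 against 2 libraries (two-sided, p = 0.333 for each) cannot give a smaller p. With only the 3 light chains of the set, the mean ratio was 2.48 in naive cells, 0.284 at 3 h, 0.626 in expanded cells and 3.12 in plasmablasts. Slc7a5 made up 57.5% to 58.8% of the light chain RPKM in naive cells, 73.0% to 85.9% from 3 h to the expanded stage and 72.2% in both plasmablast libraries.

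**Figure D2:**
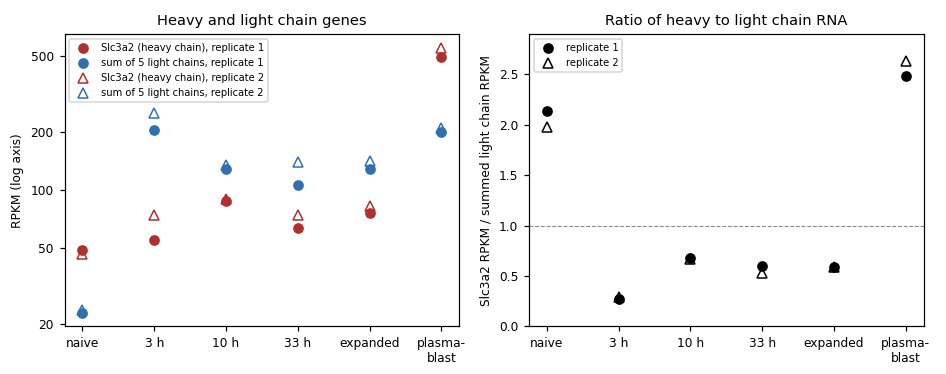
Left, RPKM on a log axis of Slc3a2 (red) and of the summed light chains Slc7a5, Slc7a6, Slc7a7, Slc7a8 and Slc7a11 (blue) in each library; right, the ratio of the 2 on a linear axis from 0, with a dashed line at 1. Filled circles are replicate 1 and open triangles replicate 2. The ratio lies above 1 in the naive and plasmablast libraries and between 0.268 and 0.679 in the 8 libraries of the stages between.

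Slc7a1 (chr5:148327410-148399904), an arginine and lysine transporter, rose at 3 h from 22.8 and 24.2 RPKM to 109.8 and 127.8 RPKM. Its later values were 42.6 and 49.0 (10 h), 46.9 and 51.7 (33 h), 44.6 and 44.1 (expanded) and 44.3 and 46.7 (plasmablasts). These 4 later stages formed a run in which each overlapped with its neighbour in level, apart from the naive stage below and 3 h above. The log2 fold change was 2.34 from naive to 3 h (SE 0.10, adjusted p = 2.9e-09) and -1.38 from 3 to 10 h (SE 0.098, adjusted p = 4.1e-06), both DE by glmTreat.

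Slc38a2 (SNAT2, chr15:96687392-96699728) had a similar high point at 3 h and a second, lower one in plasmablasts. Its RPKM was 30.6 and 26.7 in naive cells, 120.6 and 104.0 (3 h), 46.5 and 53.8 (10 h), 30.1 and 31.3 (33 h), 30.2 and 27.0 (expanded) and 59.2 and 54.6 (plasmablasts). The naive, 33 h and expanded stages overlapped at the low end. The gene was DE upwards from naive to 3 h (log2 fold change 1.97, SE 0.11, adjusted p = 5.0e-08), downwards from 3 to 10 h (-1.16, SE 0.11, adjusted p = 1.1e-04) and upwards from expanded cells to plasmablasts (0.99, SE 0.11, adjusted p = 0.0016). Without TMM scaling, by library size only, the last of these was no longer DE (adjusted p = 0.24).

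Its relative Slc38a1 (SNAT1, chr15:96571418-96643438), on the same chromosome, was the steadiest of the set. The RPKM of Slc38a1 was 40.9 and 42.3 in naive cells, 32.3 and 32.8 (3 h), 26.7 and 30.7 (10 h), 32.2 and 34.9 (33 h), 35.8 and 38.1 (expanded) and 41.4 and 39.9 (plasmablasts). The highest stage was 1.45 times the lowest and no comparison was DE by glmTreat. The F-test with no fold threshold called its fall from naive to 3 h (log2 fold change -0.35, SE 0.086, adjusted p = 0.0024). The RPKM ratio of Slc38a1 to Slc38a2 was 1.34 and 1.59 in the naive libraries, 0.267 and 0.316 in those from 3 h, and 0.700 and 0.730 in plasmablasts. Slc38a1 was the more abundant per length in naive, 33 h and expanded cells and Slc38a2 in the other 3 stages.

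Slc38a5 (SNAT5) was close to undetected. It had 2 counts in naive replicate 1, 1 count in plasmablast replicate 1 and 0 counts in the other 10 libraries. With no count in a library, as many as 3 may have gone unseen, equal to 0.0279 to 0.0901 RPKM over the 12 libraries. The gene lies on the X chromosome, whose genes the study left out of its tests, and its counts were also too low for the filter, so that it was not tested.

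The glutamine transporter Slc1a5 (ASCT2, chr7:16781334-16798274) was DE at the last step and at no earlier one. Its RPKM was 34.6 and 44.6 in naive cells, 30.4 and 45.4 (3 h), 49.8 and 43.2 (10 h), 55.8 and 56.3 (33 h) and 53.4 and 58.5 (expanded), and 138.2 and 139.0 in plasmablasts. The first 3 of these stages overlapped, as did 33 h with expanded cells. The log2 fold change from expanded cells to plasmablasts was 1.31 (SE 0.16, adjusted p = 6.2e-04, glmTreat).

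Slc43a1 (LAT3, chr2:84838855-84863586) moved opposite to Slc7a6, Slc7a1 and Slc38a2 at the first 2 steps. It fell from 4.16 and 3.92 RPKM in naive cells to 1.30 and 1.62 RPKM at 3 h, and then stood at 3.59 and 3.39 (10 h), 5.71 and 5.40 (33 h), 9.25 and 10.5 (expanded) and 17.4 and 18.2 (plasmablasts). No 2 stages overlapped. It was DE downwards from naive to 3 h (log2 fold change -1.45, SE 0.14, adjusted p = 1.5e-05), upwards from 3 to 10 h (1.24, SE 0.14, adjusted p = 2.6e-04) and upwards from expanded cells to plasmablasts (0.85, SE 0.11, adjusted p = 0.019). The last call was lost without expanded replicate 1 (adjusted p = 0.16), without plasmablast replicate 2 (adjusted p = 0.073), with DESeq2 (adjusted p = 0.075), with no filter on low counts (adjusted p = 0.065) and with library size alone (adjusted p = 0.74).

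Counted by step, 4 of the 9 tested transporters were DE upwards from naive to 3 h (Slc7a5, Slc7a6, Slc7a1 and Slc38a2) and 1 downwards (Slc43a1), where 21.0% of all tested genes were DE upwards and 24.3% downwards. The median log2 fold change of the 9 was 0.76, beside -0.031 over all tested genes. From 3 to 10 h, 3 were DE downwards (Slc7a6, Slc7a1 and Slc38a2) against 13.4% of all tested genes, and 1 upwards (Slc43a1) against 17.4%, with a median of -0.18 beside 0.018. The 2 steps share the 3 h libraries. When libraries were scaled by size alone, the median over all genes shifted to -0.24 and 0.35 at these 2 steps, and the same numbers of transporters were DE in each direction. From naive to 3 h the F-test with no fold threshold called 5 upwards and 2 downwards, beside 4419 and 4633 of the 12750 tested genes. From 3 to 10 h it called 2 upwards and 4 downwards, beside 4094 and 3848.

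From 10 to 33 h and from 33 h to expanded cells, 0 of the 9 were DE by glmTreat. Few genes were DE at these steps, 10.1% of all tested genes upwards and 4.45% downwards at the first and 6.94% and 3.66% at the second, so that 0 of 9 is near the background. At an unadjusted p below 0.05 there was 1 at each step, Slc38a2 (log2 fold change -0.71, SE 0.11) and Slc43a1 (0.83, SE 0.12). DESeq2 called 0 at both steps, where of the 12750 tested genes it called 987 and 603 upwards and 272 and 292 downwards. The quasi-likelihood F-test with no fold threshold called 4 at the first, beside 2964 of the 12750 genes upwards and 2834 downwards. At the second it called 1, beside 2353 upwards and 2700 downwards.

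From expanded cells to plasmablasts, 4 were DE upwards by glmTreat (Slc3a2, Slc1a5, Slc38a2 and Slc43a1), where 13.9% of all tested genes were. DESeq2 called 3 upwards, beside 1340 of all 12750 tested genes, and the F-test 6, beside 3469. Each of the 3 tests called 0 downwards, where glmTreat called 12.2% of all tested genes, DESeq2 992 genes and the F-test 3787 genes. All 9 log2 fold changes were positive and the lowest was that of Slc7a1 (0.036). The median was 0.53, beside -0.046 over all tested genes. Under scaling by library size alone the median over all genes was -0.38, Slc7a1 and Slc38a1 turned to -0.30 and -0.20, and 2 transporters, Slc3a2 and Slc1a5, were DE. The 194 other tested genes with an Slc symbol also leaned upwards at this step, with 53 DE upwards and 17 downwards and a median of 0.23.

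**Figure D3:**
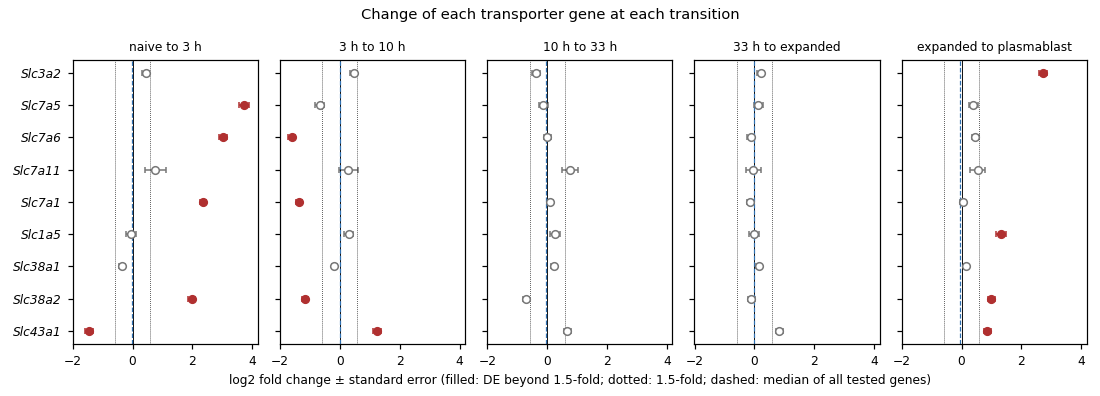
Log2 fold change of the 9 tested transporters (rows) at each of the 5 steps, with the standard error as a bar. Red filled points were DE beyond 1.5-fold; dotted lines mark 1.5-fold and the dashed blue line the median of all tested genes. At the first step 4 points lie far to the right, from 10 to 33 h and from 33 h to expanded cells no point is filled, and at the last step Slc3a2 stands out at 2.72.

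Across the whole course, 5 of the 9 were DE upwards from naive to expanded cells, where 24.9% of all tested genes were. Slc7a5 had the highest log2 fold change of the 9 (3.06, SE 0.17), followed by Slc7a11 (1.79, SE 0.32), Slc7a6 (1.31, SE 0.12), Slc43a1 and, last, Slc7a1 (0.92, SE 0.098). From naive cells to plasmablasts 8 of the 9 were DE upwards, against 26.6% of all tested genes, and Slc38a1 alone was not (-0.034, SE 0.086). Slc3a2 and Slc7a5 had log2 fold changes of 3.46 each (SE 0.14 and 0.17). For naive to expanded cells, 6 were DE with library size alone and 6 with only the 4 libraries compared, each time with Slc3a2 added (adjusted p = 0.049 and 0.017), and 7 with the F-test. Of all 12750 tested genes, 3344, 3256 and 4812 were DE upwards under these settings in turn. These 2 comparisons share the naive libraries with each other and with the first step.

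The make-up of the summed transporter RNA differed between stages. Slc3a2 was the most abundant per length in naive cells, at 23.3% of the sum, followed by Slc38a1 at 20.4% and Slc1a5 at 19.4%. Slc7a5 held 6.59% there but was the highest at 3 h, 10 h, 33 h and in expanded cells, with 29.9%, 28.7%, 28.3% and 29.4%. At 3 h Slc7a1 (20.1%) and Slc38a2 (19.2%) came next. In plasmablasts Slc3a2 alone held 52.8%, ahead of Slc7a5 with 14.9% and Slc1a5 with 14.0%.

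**Figure D4:**
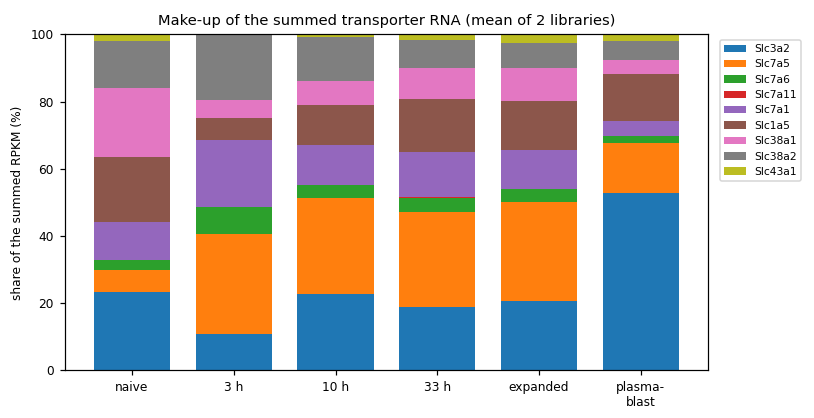
Share of each tested transporter in the summed RPKM of the set, in percent, as the mean of 2 libraries per stage. Slc7a5 (orange) is the widest part from 3 h to the expanded stage and Slc3a2 (blue) takes 52.8% in plasmablasts.

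Over the 12 libraries, the genes whose log2 CPM was most like that of Slc3a2 by Pearson's r were Yif1b (0.986), Ube4a (0.982) and Cope (0.978). For Slc7a5 they were Minpp1 (0.988), Tars (0.986) and Sqle (0.981). Within the set, Slc7a1 and Slc7a6 were nearest to each other (0.963), as were Slc3a2 and Slc1a5 (0.940), whereas Slc3a2 was not the nearest of the set to any light chain. The points are 6 stages with 2 libraries each, so r mostly describes the stage means.

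The RefSeq promoter table (GRCm38.p6) held windows for 7 of the 10 genes, 9 windows in all, each reaching from 250 bases before the transcript start to 50 after it. It was searched on both strands for 3 motifs of pathways that respond to amino acid supply, growth or oxidative stress: TGATGNAA, the C/EBP-ATF composite element bound by ATF4, CACGTG, the E-box bound by Myc and the TFE factors, and TGACNNNGC, the core of the antioxidant response element. These were present in 3.97%, 7.15% and 12.4% of all 32851 windows. The 100 bases before the start are shown for the 3 genes with windows that rose at 3 h and fell by 10 h, for Slc3a2, Slc43a1 and for Slc7a11, 5′ to 3′ on the strand of the gene, with motif matches in capitals.
Slc7a1, chr5:148399905-148400004, minus strand: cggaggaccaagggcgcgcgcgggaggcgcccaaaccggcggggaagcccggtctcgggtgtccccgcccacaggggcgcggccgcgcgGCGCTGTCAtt
Slc7a6, chr8:106168821-106168920, plus strand: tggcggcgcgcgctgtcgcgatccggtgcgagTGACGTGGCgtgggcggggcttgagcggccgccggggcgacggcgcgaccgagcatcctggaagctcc
Slc38a2, chr15:96699729-96699828, minus strand: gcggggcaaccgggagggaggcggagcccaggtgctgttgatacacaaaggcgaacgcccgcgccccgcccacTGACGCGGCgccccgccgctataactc
Slc43a1, chr2:84840223-84840322, plus strand: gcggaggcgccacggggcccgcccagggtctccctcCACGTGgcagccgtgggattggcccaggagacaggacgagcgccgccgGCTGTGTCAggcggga
Slc7a11, chr3:50443614-50443713, minus strand: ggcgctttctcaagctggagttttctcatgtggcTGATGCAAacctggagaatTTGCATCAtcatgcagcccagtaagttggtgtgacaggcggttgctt
Slc3a2, chr19:8713898-8713997, minus strand: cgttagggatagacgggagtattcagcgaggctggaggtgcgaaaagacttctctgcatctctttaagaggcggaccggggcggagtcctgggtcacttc

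In the windows printed, Slc7a1, Slc7a6 and Slc38a2 each held a TGACNNNGC match, which began 11, 68 and 27 bases before the start. The second window of Slc7a1 held none of the motifs, and in the other window of Slc7a6 the site began 1 base before the start. For the printed windows of Slc7a6 and Slc3a2, 0 GENCODE M21 transcripts of the gene held the bases soon after the start in an unbroken run. Slc43a1, the gene that fell at 3 h, also held a TGACNNNGC match, at 16 bases. In all, 5 of the 9 windows held this motif, counting for each Slc7a6 window the site that both share. Slc7a11 held TGATGNAA at 66 bases and again on the opposite strand at 47 bases. CACGTG was found in Slc43a1 at 64 bases and in the Slc38a5 window at 30 bases, and none of the 3 motifs was found in the Slc3a2 window. That window (chr19:8713848-8714147) lies inside the gene, away from the 5′ end of its span at 8723369. The bases before that end were not searched. The windows of Slc7a6, Slc7a11 and Slc43a1 also lie inside the span of their gene. A match is a description of the letters and not of binding, which was not measured here.

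Other amino acid transporters and the enzymes that use their cargo were read from 4 further lists. Of 36 other plasma membrane transporters 11 were tested. From expanded cells to plasmablasts 3 of these rose (27.3%, beside 13.9% of all tested genes) and 2 fell (18.2%, beside 12.2%), and Slc7a8 (LAT2), also a light chain of Slc3a2, rose from 0.129 ± 0.060 to 3.54 ± 0.43 RPKM (SD, n = 2; log2 fold change 4.80, SE 0.34, adjusted p = 2.8e-07, glmTreat). Slc7a8 remained far below Slc7a5 per length. Slc7a7, another light chain counted in the ratio, also rose, from 7.74 ± 0.39 to 33.5 ± 0.93 RPKM (log2 fold change 2.11, SE 0.18, adjusted p = 3.6e-06, glmTreat). From 3 to 10 h Slc7a8 was also DE downwards, from 8 and 5 counts to 3 and 0 counts, at which no fold is given. The glycine transporter Slc6a9 fell from 4.27 ± 0.996 to 0.486 ± 0.11 RPKM between 10 and 33 h (log2 fold change -3.16, SE 0.55, adjusted p = 0.0036), after it had risen from 3 to 10 h (3.19, SE 0.59, adjusted p = 0.0025), and was DE upwards from naive cells to plasmablasts (adjusted p = 2.0e-04). The 2 libraries of Slc6a9 at 3 h differed, at 0.0170 and 0.793 RPKM. The size of its rise from 3 to 10 h therefore depends on the 3 h library used. Slc1a2, a glutamate transporter, was DE upwards from naive to 3 h, from 0 counts in both naive libraries to 7 and 12 counts, with no fold given. Slc7a3 is on the same list but was not tested. Its RPKM was 0.0269 ± 0.015 in naive cells, 0.299 ± 0.22 (3 h), 14.7 ± 0.010 (10 h), 8.33 ± 4.0 (33 h), 10.4 ± 0.66 (expanded) and 34.1 ± 4.1 (plasmablasts).

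Among 13 tested lysosomal and vesicular transporters, 6 rose (46.2%, beside 13.9% of all tested genes) and 0 fell (beside 12.2%) from expanded cells to plasmablasts, with a median log2 fold change of 0.97. Slc36a4, an amino acid transporter, rose from 2.26 ± 0.058 to 8.003 ± 0.012 RPKM between 33 h and expanded cells (log2 fold change 1.82, SE 0.16, adjusted p = 3.7e-05). At the first step 2 rose (15.4%, beside 21.0%) and 5 fell (38.5%, beside 24.3%), and Slc66a1 (PQLC2), which exports cationic amino acids from lysosomes, fell from 11.6 ± 0.098 to 1.78 ± 0.023 RPKM (log2 fold change -2.70, SE 0.14, adjusted p = 9.9e-09, glmTreat) and rose again by 10 h (1.54, SE 0.14, adjusted p = 1.8e-05). The vesicular glutamate transporter Slc17a7 was DE upwards at that step with 0 counts in naive cells and 5 and 6 counts at 3 h. Slc15a3, a lysosomal peptide and histidine transporter, fell from 87.2 ± 19.8 to 30.9 ± 0.27 RPKM from 3 to 10 h (log2 fold change -1.50, SE 0.13, adjusted p = 1.1e-05), after a rise from naive to 3 h (2.05, SE 0.13, adjusted p = 1.1e-07) and before a rise from expanded cells to plasmablasts (1.61, SE 0.13, adjusted p = 6.0e-06).

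Of 12 tested mitochondrial carriers, 5 rose (41.7%, beside 17.4% of all tested genes) and 0 fell (beside 13.4%) from 3 to 10 h. Sfxn2 had the largest rise of these, from 1.36 ± 0.26 to 7.02 ± 0.18 RPKM (log2 fold change 2.39, SE 0.18, adjusted p = 1.1e-06, glmTreat), after a fall from 4.98 ± 0.47 RPKM in naive cells. The aspartate-glutamate carrier Slc25a13 rose from 10 to 33 h (log2 fold change 1.34, SE 0.16, adjusted p = 5.3e-04) and fell from expanded cells to plasmablasts (-1.31, SE 0.16, adjusted p = 4.3e-04).

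Of 37 tested enzymes of amino acid, glutathione and polyamine metabolism, 13 rose (35.1%, beside 21.0% of all tested genes) and 4 fell (10.8%, beside 24.3%) from naive to 3 h, and 18 rose (48.6%, beside 17.4%) and 2 fell (5.41%, beside 13.4%) from 3 to 10 h. From expanded cells to plasmablasts 3 rose (8.11%) and 5 fell (13.5%), shares near the 13.9% and 12.2% of all tested genes. Cth, an enzyme that releases cysteine from cystathionine, rose from 0.119 ± 0.038 to 3.17 ± 0.020 RPKM between 3 and 10 h (log2 fold change 4.64, SE 0.30, adjusted p = 1.9e-07, glmTreat), fell from 10 to 33 h (-1.58, SE 0.19, adjusted p = 4.4e-04) and rose again to the expanded stage (2.46, SE 0.19, adjusted p = 7.2e-06). Chac1, which degrades glutathione, was DE upwards from naive to 3 h (log2 fold change 5.59, SE 1.19, adjusted p = 0.0043), but with 28 counts in replicate 1 at 3 h and 572 in replicate 2, so that its size rests on 1 library. The alanine aminotransferase Gpt fell from naive to 3 h (log2 fold change -1.91, SE 0.24, adjusted p = 9.5e-05). Its relative Gpt2 rose from 3 to 10 h (2.65, SE 0.37, adjusted p = 2.9e-04) and fell from 10 to 33 h (-1.97, SE 0.33, adjusted p = 0.0037), and from naive cells to plasmablasts its log2 fold change was 3.87 (SE 0.41, adjusted p = 8.7e-06).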

How the data were processed

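RNA was measured in 12 libraries of mouse splenic B cells. The authors prepared polyA libraries with the TruSeq kit, sequenced them as 81 bp paired reads (CASAVA 1.8.2), aligned the reads with Rsubread (mm10) and obtained counts per Entrez gene with featureCounts. Whether strand was used is not given in the sources used here. The values deposited by the authors are raw counts with no normalization, and the 12 single-sample files equalled the table. As in the study, 1904 IDs without annotation, 33 ribosomal RNA, 15 mitochondrial, 1279 X and Y chromosome and 248 variable immunoglobulin genes were removed, and filterByExpr kept 12750 of the 23700 left. In R 4.3.3, edgeR 4.0.16 was used with TMM scaling, robust quasi-likelihood dispersions and glmTreat (fold 1.5, adjusted p below 0.05) in a single layout of all 12 libraries. The SE is the log2 fold change over the root of the quasi-likelihood F. RPKM used TMM-scaled library sizes. The floor was 3 counts, which covers counting error only. DESeq2 1.42.0, other scalings, filters and samples were tried, and the procedure was tested on data simulated for the last step. There, with 200 of 12750 genes changed, glmTreat found 34% of 2-fold, 78% of 3-fold and 94% of 8-fold changes. It called 1 unchanged gene. Many 2-fold changes can therefore go without a call.

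No exon of another gene overlapped the 10 genes in GENCODE M21. The named list genes are those with the largest called rise or fall at a step, at most 2 per list and direction. Slc7a7, a light chain in the ratio, and the untested Slc7a3 were added to these. The 10 genes and the lists were chosen with earlier results of these data known.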

Additional observations from a re-analysis of the deposited data

How the results depend on the processing

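Each number of DE transporters was recomputed with other scalings, tests, filters and samples. From 10 to 33 h the F-test without a fold threshold called 4 in place of 0, beside 2964 of the 12750 tested genes upwards and 2834 downwards. From 33 h to expanded cells 1 was called with DESeq2 size factors, 1 with the F-test and 1 with only the 4 libraries compared, Slc43a1 each time. Of the 12750 tested genes, 926, 2353 and 910 were called upwards under these settings in turn. From expanded cells to plasmablasts 2 were called with library size alone in place of 4, beside 1181 of the 12750 tested genes upwards in place of 1776. The replicate numbers do not pair the libraries (15 correlations of replicate differences, -0.139 to 0.0841), and the fit with a replicate block called 5, 4, 0, 0, 4, 5 and 8 over the 7 comparisons, as without it.

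Of 63 log2 fold changes of single transporters, 35 kept their sign and their side of the threshold under every setting. Changes of sign all concerned log2 fold changes not DE under either setting, up to 0.28 in size (Slc7a11 from 3 to 10 h, main fit). With library size alone these were Slc38a1 from 3 to 10 h (0.15), Slc7a6 from 10 to 33 h (-0.048; -0.017 with the removed genes kept), Slc7a1 and Slc38a1 from expanded cells to plasmablasts (-0.30 and -0.20) and Slc38a2 from naive to expanded cells (0.052). From 33 h to expanded cells, Slc7a11 gave 0.0054 with at least 10 counts in every library and 0.0030 with only 4 libraries, and Slc1a5 gave 0.021 with DESeq2 size factors or its Wald test and 0.028 under the former 2 settings. Leaving out each library in turn gave -0.41 to 0.20 for Slc1a5 from naive to 3 h, -0.035 to 0.91 for Slc7a11 from 3 to 10 h, -0.36 to 0.092 for Slc7a5 and -0.061 to 0.091 for Slc7a6 from 10 to 33 h, -0.085 to 0.36 for Slc7a5, -0.25 to 0.15 for Slc7a11 and -0.0731 to 0.0577 for Slc1a5 from 33 h to expanded cells, and -0.0905 to 0.104 for Slc38a2 from naive to expanded cells. From naive cells to plasmablasts, Slc7a1 and Slc38a2 were no longer DE with library size alone (adjusted p = 0.14 and 0.085). The causes were not tested. Depth limits Slc38a5, with at most 2 counts in a library, and Slc7a11, with 12 to 120.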
